A study of Mus musculus with 26 samples.

Results

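The nuclear genes for the subunits of the mitochondrial respiratory chain were followed through the reprogramming of mouse fibroblasts. Members were taken by symbol: every gene of the table that begins with Ndufa, Ndufb, Ndufc, Ndufs, Ndufv, Sdha, Sdhb, Sdhc, Sdhd, Uqcr, Cox4i, Cox5, Cox6, Cox7 or Cox8, without the Ndufaf genes and Ndufa4l2, and with a value of 10 or more in at least 2 libraries. The prefixes found 69 genes and 68 of them passed the value filter, out of 16038 genes that passed it among 18198 in the table. The gene left out was Cox6a2, the muscle form of a complex IV subunit, which stood at 1 in the first MEF library and at 0 in the other 25. The 68 members comprised 37 genes of complex I, 4 of complex II, 8 of complex III and 15 of complex IV, together with 4 assembly factors of complex II (Sdhaf1 to Sdhaf4) that share the Sdha prefix. Complexes were assigned by symbol, so Ndufa4, now known as a subunit of complex IV, was counted with complex I throughout. In 64 members the value was 10 or more in all 26 libraries; the exceptions were Cox4i2, Cox7a1, Cox7b2 and Sdhaf4. The 13 protein-coding genes of mitochondrial DNA were not found in the table by symbol. The subunits they encode, and Cox8b and Cox8c, were not analysed here.

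RNA was measured in 13 groups of 2 libraries each. MEF were mouse embryonic fibroblasts at passage 2, grown with serum. ESC were embryonic stem cells of CBA/CaJ X C57BL/6J origin at passages 20 to 24, and iPSC were induced pluripotent stem cells from picked colonies at passages 5 to 8, both kept in N2B27 medium with 2i and LIF. The other 10 of the 13 groups were fibroblasts of low passage that had been infected with retrovirus and then kept in iCD1 or ESC medium. Cells given OSK (the reprogramming factors Oct4, Sox2 and Klf4) were taken at days 0, 1, 3, 5 and 7, cells given OSK with cJun at days 0, 1, 3 and 7, and cells given OSK with an shRNA against Sap30, delivered by lentivirus, at day 7. The labels do not say which medium each group had, whether replicates were separate cultures, or how cells without an shRNA were handled, so p-values measure only the spread between these libraries, which may be technical.

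The respiratory chain passes electrons from NADH, at complex I, and from succinate, at complex II, through ubiquinone to complex III, and from there through cytochrome c to complex IV, where oxygen is reduced. Complexes I, III and IV pump protons across the inner mitochondrial membrane, and each combines subunits from nuclear and mitochondrial genes; complex II is wholly nuclear and is also an enzyme of the citrate cycle. Pluripotent cells are known for relying on glycolysis more than fibroblasts do, although naive embryonic stem cells also respire, and the chain is remodelled when fibroblasts become pluripotent. Several complex IV subunits exist as pairs of genes, in which a tissue form replaces the ubiquitous form in muscle, lung or testis.

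Some facts of the libraries bear on these results. The deposited values were normalised by the authors to the same distribution in every library, with a median of 61, so depth could not be read from them and they are relative levels within a library. Pou5f1 (Oct4) stood at 2 and 0 in MEF and at 11662 and 8974 in OSK-D0, so the day 0 groups already carried RNA of the reprogramming factors. The first OSK-D5 library stood apart, with Pou5f1 at 656 and Sox2 at 1792, against the table's highest value and 6116 in the second. Sap30 was 20 and 41 in OSK-shSap30-D7 against 301 and 378 in OSK-D7. The summed value of 12 fibroblast markers was 98330 to 107901 in MEF, 332 to 968 in ESC and 9840 to 18210 in iPSC, and that of 10 pluripotency markers was 9 to 19, 23229 to 23945 and 24105 to 24315; in OSK-D7 these sums were 14519 to 15129 and 1831 to 2794. Reprogramming cultures are mixtures, and in such bulk RNA fewer cells of a type and less RNA per cell cannot be told apart. The second OSK-D7 library and the second OSK-shSap30-D7 library stood apart for the members themselves: the mean log2 level, relative to MEF, of the 64 members at 10 or more in all libraries (61 subunits and 3 assembly factors) was 0.07 and 0.68 in the 2 OSK-D7 libraries and -0.11 and -0.50 in the 2 OSK-shSap30-D7 libraries. For most comparisons, counts of members called that use these libraries are therefore given with and without them. For the lists of other genes this was done only in part.

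All 68 members are protein coding in the GENCODE annotation of GRCm38, and they lie on 18 chromosomes, with 8 on chromosome 7 and 7 on chromosome 1. Exons of 21 members overlap exons of another gene. The longest stretches shared with a coding gene were 616 bases between Ndufb5 and Mrpl47 on the opposite strand and 504 bases between Uqcrc2 and Pdzd9. The library kit does not mark strand, so reads of such pairs cannot be told apart, and members with close copies elsewhere in the genome, such as Ndufab1, Uqcrh and Ndufb4, may share reads with them. RefSeq promoter windows (GRCm38.p6, 250 bases before to 50 after the start) were found for 57 members as 59 windows. On either strand the NRF1 core GCATGCGC was held by 11.9% of member windows and 2.71% of all 32851 windows, the GABPA core CCGGAAG by 23.7% and 8.86%, and the YY1 site AAGATGGC by 11.9% and 2.75%. The SP1 box GGGCGG was held by 47.5% and 35.7%, the ERR site TCAAGGTCA by 1.69% and 0.42%, and its core AAGGTCA, which is part of the longer ERR site, by 6.78% and 4.72%. NRF1, GABPA, YY1 and the ERR receptors are known regulators of respiratory genes; a match to their letters is a description only. Member windows held a median of 19 CpG dinucleotides and all windows a median of 7.

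Among the members, the largest differences were in 3 pairs of complex IV isoforms, and the bases before their starts are shown to set each tissue form beside its ubiquitous partner. Each sequence is the 250 bases before the RefSeq start, read 5′ to 3′ on the gene's strand, with capitals for a match to any of the motifs above on either strand. Cox6b2 (chr7:4753095-4753344, minus strand) and Cox6b1 (chr7:30626115-30626364, minus strand) both lie on chromosome 7, as does Cox7a1 (chr7:30183921-30184170, plus strand); Cox7a2 is at chr9:79759854-79760103 (minus strand), Cox7b2 at chr5:71548206-71548455 (minus strand) and Cox7b at chrX:106015450-106015699 (plus strand).
Cox6b2: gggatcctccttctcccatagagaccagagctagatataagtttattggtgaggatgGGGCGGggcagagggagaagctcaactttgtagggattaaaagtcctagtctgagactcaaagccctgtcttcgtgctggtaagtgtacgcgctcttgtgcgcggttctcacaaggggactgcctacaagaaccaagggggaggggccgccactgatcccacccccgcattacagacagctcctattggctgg
Cox6b1: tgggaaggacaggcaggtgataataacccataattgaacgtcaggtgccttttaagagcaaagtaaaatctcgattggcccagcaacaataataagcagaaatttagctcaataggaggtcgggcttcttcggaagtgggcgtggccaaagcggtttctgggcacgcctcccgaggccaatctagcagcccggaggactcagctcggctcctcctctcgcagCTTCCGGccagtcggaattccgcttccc
Cox7a1: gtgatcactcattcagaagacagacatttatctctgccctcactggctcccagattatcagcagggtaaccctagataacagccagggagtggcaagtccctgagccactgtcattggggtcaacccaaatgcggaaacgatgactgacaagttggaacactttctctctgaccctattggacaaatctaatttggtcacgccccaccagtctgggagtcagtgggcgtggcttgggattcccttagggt
Cox7a2: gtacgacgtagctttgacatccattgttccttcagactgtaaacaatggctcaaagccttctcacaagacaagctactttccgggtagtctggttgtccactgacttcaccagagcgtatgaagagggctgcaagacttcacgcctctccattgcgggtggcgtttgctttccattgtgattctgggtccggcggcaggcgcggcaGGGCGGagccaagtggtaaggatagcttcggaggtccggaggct
Cox7b2: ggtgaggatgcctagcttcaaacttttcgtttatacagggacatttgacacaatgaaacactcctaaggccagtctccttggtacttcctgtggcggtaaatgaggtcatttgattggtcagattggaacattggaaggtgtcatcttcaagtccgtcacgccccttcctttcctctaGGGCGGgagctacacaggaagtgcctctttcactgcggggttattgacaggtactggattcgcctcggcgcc
Cox7b: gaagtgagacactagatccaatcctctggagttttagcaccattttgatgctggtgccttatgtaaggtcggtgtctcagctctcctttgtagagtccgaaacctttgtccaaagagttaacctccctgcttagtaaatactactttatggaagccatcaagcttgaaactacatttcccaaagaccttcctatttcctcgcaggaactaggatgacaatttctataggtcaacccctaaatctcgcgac
The 250 bases before Cox6b2, Cox7a1 and Cox7b2 held 8, 4 and 9 CpG dinucleotides, and those before Cox6b1, Cox7a2 and Cox7b held 14, 14 and 5. The only capitals are an SP1 box before Cox6b2, Cox7a2 and Cox7b2 and a GABPA core before Cox6b1; no match says only that these letters are not in the window.

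As a family the members varied little between groups. Group means were taken on log2(value+1) and their ratio read back as a fold of value+1. The highest group mean was a median of 2.15 times the lowest over the 68 members, against 5.02 times over all genes tested. The ratio was under 2 in 26 members (38.2%) and in 11.7% of all genes tested. It was 3 or more in 14 members, led by genes of complex IV. Cox7b2 came first, but its lowest groups were listed at 0 and no ratio is given; Cox6b2 (10.7) and Cox5a (5.92) had values well above 0 throughout, whereas Cox7a1 and Cox4i2 each had a value of 0 in 1 library of their lowest group. The group mean was highest in ESC for 31 members, in OSK-D7 for 17 and in MEF for 6. It was lowest in OSK-shSap30-D7 for 23 members, in OSK-D5 for 15 and in OSK-cJun-D3 for 8. Without the first OSK-D5 library and the second OSK-D7 and OSK-shSap30-D7 libraries, ESC was highest for 34 members and OSK-D7 for 8, and OSK-cJun-D3 was lowest for 18, OSK-shSap30-D7 for 16 and OSK-D5 for 5.

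**Figure D1:**
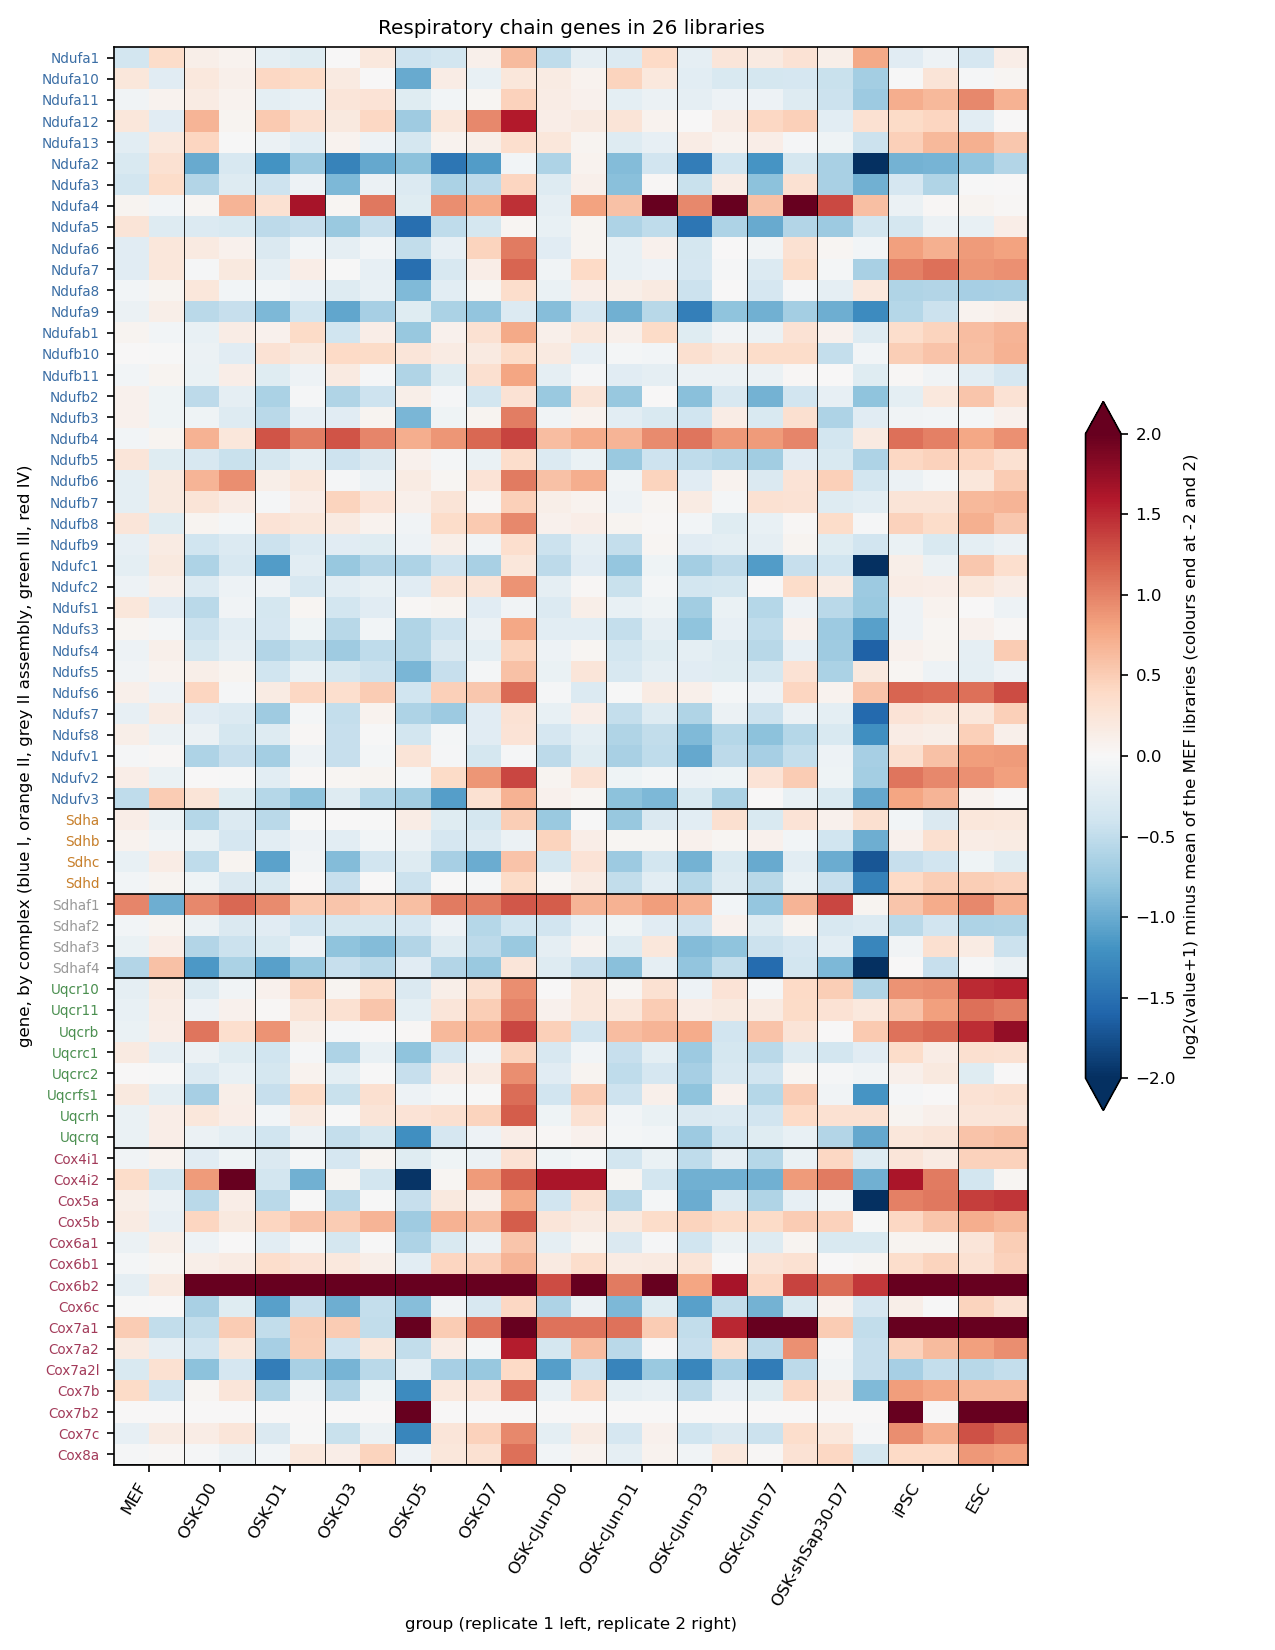
Level of 67 of the 68 genes in each of the 26 libraries, as log2(value+1) minus the mean of the 2 MEF libraries; rows are grouped by complex and columns by group. ESC and iPSC columns are red for many genes of complexes III and IV, the second OSK-D7 column is red through most rows, and Cox6b2 is red in every group outside MEF.

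Relative to MEF, the mean log2 level in ESC and iPSC was higher for complexes III and IV than for complexes I and II. The mean of complex IV was taken over the 12 genes at 10 or more in all libraries, which leaves out Cox4i2, Cox7a1 and Cox7b2; all genes of the other complexes entered. In ESC it was 0.28 ± 0.02 for complex I, 0.17 ± 0.04 for complex II, 0.69 ± 0.05 for complex III and 0.82 ± 0.01 for complex IV (SD, n = 2). In iPSC the means were 0.19 ± 0.02, 0.01 ± 0.03, 0.43 ± 0.03 and 0.63 ± 0.02. Cox6b2 carried part of the complex IV mean, which without it was 0.61 ± 0.02 in ESC and 0.39 ± 0.01 in iPSC, in both below complex III and above complexes I and II. In OSK-D7 they were 0.32 ± 0.39, -0.04 ± 0.53, 0.56 ± 0.46 and 0.66 ± 0.59, so the spread between its 2 libraries was near or above the means themselves. In OSK-shSap30-D7 they were -0.39 ± 0.24, -0.69 ± 0.35, -0.13 ± 0.19 and -0.06 ± 0.37. These means describe the genes and carry no test.

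**Figure D2:**
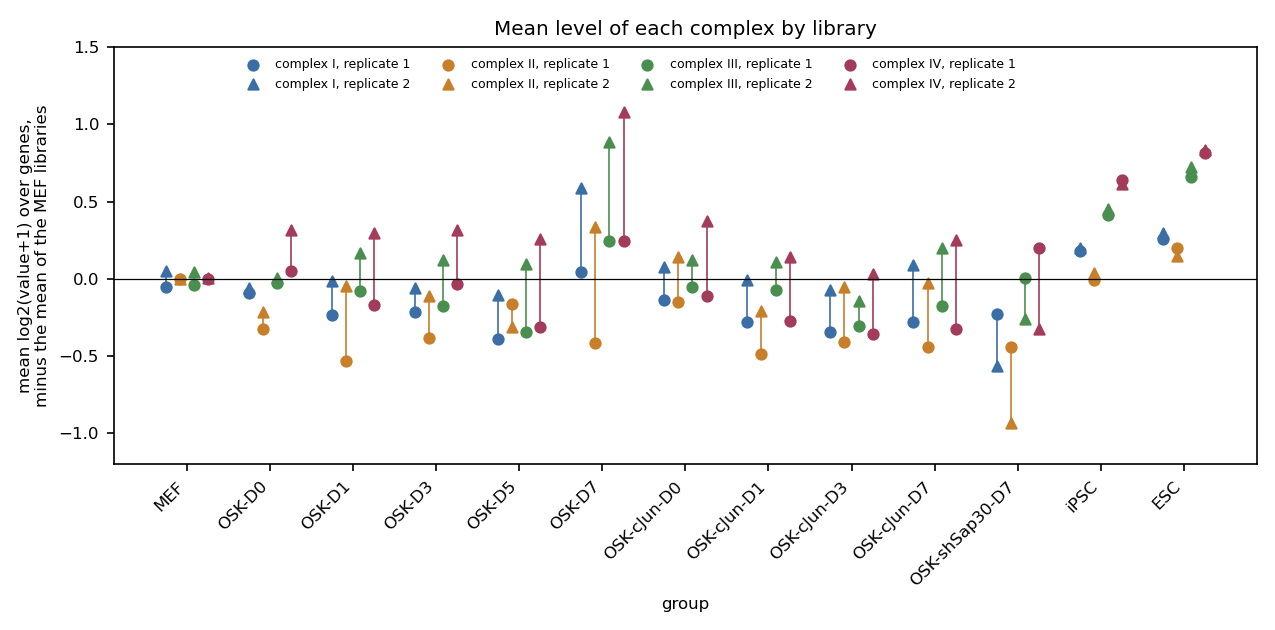
Mean log2(value+1) over the genes of each complex at 10 or more in all libraries (12 of 15 for complex IV), minus the mean of the 2 MEF libraries, with 1 circle (replicate 1) and 1 triangle (replicate 2) per complex and group, joined by a line. ESC and iPSC pairs nearly coincide, with complexes III and IV above complex I, whereas the lines of OSK-D7 span from 0.04 to 0.59 for complex I and from 0.24 to 1.08 for complex IV.

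Among the members, the complex IV isoforms Cox7b2, Cox7a1 and Cox6b2 differed most between group means, which is a description only. Cox7b2, whose known site of expression is the testis, stood at 86 and 71 in ESC and at 24 and 0 in iPSC. It was 4 and 0 in OSK-D5 and was listed at 0 in all libraries of the other 10 groups, MEF included, so no fold against MEF is given. Cox7b2 and Cox7a1 passed the value filter only through ESC and iPSC libraries, where they are high, so no test of either gene is read as support, although both enter the counts of calls. Its ubiquitous partner Cox7b was 814 and 814 in ESC and 674 and 393 in MEF. Per kilobase of exon, Cox7b2 made up 16.3 to 19.1% of the pair in ESC and 0 to 5.53% in iPSC. Between iPSC and ESC, Cox7b2 was the only member called by limma, with a log2 fold of -3.98 ± 1.02 (SE); the call was lost without either ESC library and without the second iPSC library, the one listed at 0.

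Cox7a1, the form of heart and skeletal muscle, was 88 and 50 in ESC, 24 and 29 in iPSC, 1 and 0 in MEF, and 0 to 8 in every other library. ESC and iPSC each lay above all other groups without overlap. The log2 fold of value+1, which understates changes of low genes, was 5.57 ± 0.79 in ESC against MEF and 4.28 ± 0.79 in iPSC against MEF, given as a description. Per kilobase its share of the pair with Cox7a2 was 12.9 to 21.9% in ESC, 8.95 to 9.54% in iPSC and at most 0.495% in MEF. Of 9 markers of skeletal and cardiac muscle, 6 were in the table and summed to 14 to 25 in ESC, 103 to 145 in iPSC and 415 to 1602 in MEF. The lowest sums, 5 to 8, were in OSK-cJun-D7, where Cox7a1 was 5 and 5. Of 5 germ cell markers, 4 were in the table and summed to 509 to 643 in ESC, 292 to 322 in iPSC and 19 to 32 in MEF, and were highest in ESC and iPSC; their part in its level was not tested.

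Cox6b2, also known from testis, differed in timing from the other isoforms, because it was already high at day 0. It was 17 and 22 in MEF and 125 and 212 in OSK-D0, a log2 fold of 3.01 ± 0.61 (limma adjusted p = 0.00369) and the only member called in that comparison. It stood at 100 and 199 in OSK-D1, 197 and 237 in OSK-D3, 130 and 82 in OSK-D5 and 85 and 296 in OSK-D7, and these ranges overlap from day to day except between OSK-D3 and OSK-D5. In ESC it was 180 and 174 and in iPSC 230 and 163, with log2 folds against MEF of 3.13 ± 0.61 and 3.26 ± 0.61. With cJun its values were 49 and 155 in OSK-cJun-D0, 41 and 99 in OSK-cJun-D1, 34 and 63 in OSK-cJun-D3 and 26 and 51 in OSK-cJun-D7. Against OSK at the same day it was lower by a log2 fold of -2.20 ± 0.61 on day 3 (limma adjusted p = 0.028) and -2.09 ± 0.61 on day 7 (0.025), and it was not called on days 0 and 1. In OSK-shSap30-D7 it was 43 and 53, below both OSK-D7 libraries, without a call. Its share per kilobase of the pair with Cox6b1 was 1.76 to 2.15% in MEF, 14.9 to 18.3% in OSK-D3, 2.19 to 4.08% in OSK-cJun-D7 and 11.4 to 13% in ESC. The ubiquitous Cox6b1 kept within 539 to 1003 in all libraries.

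Cox4i2, a form known from lung and from hypoxic cells, was low throughout, with 16 as its highest value. Its values of 0 and 3 in OSK-D5 against 6 and 16 in OSK-D0 gave a call (log2 fold -2.45 ± 0.77, limma adjusted p = 0.0256) that was lost in 3 of 10 alternatives. Per kilobase it was at most 2.64% of the pair with Cox4i1. Cox4i1, the ubiquitous form, was 1700 and 1699 in ESC and 1175 and 1292 in MEF, without overlap and without a call.

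**Figure D3:**
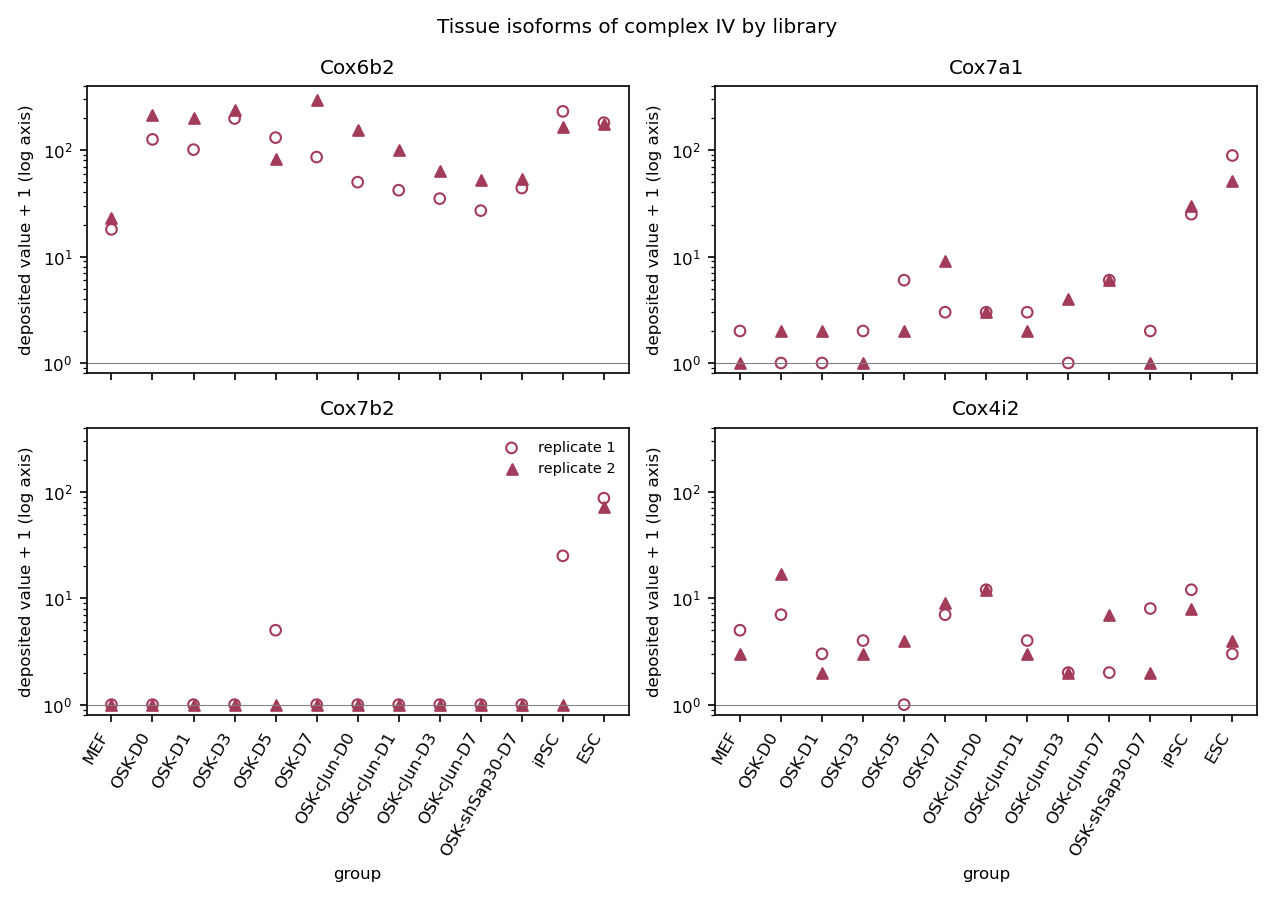
Deposited value plus 1, on a log axis, of 4 complex IV isoforms in each group (open circle replicate 1, filled triangle replicate 2; the grey line is a value of 0). Cox7b2 and Cox7a1 rise above 20 in ESC and iPSC, apart from the iPSC library listed at 0 for Cox7b2, and Cox6b2 is above the MEF values in all other groups, with its lowest values there in OSK-cJun-D7.

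Against MEF, more of the chain was higher in ESC than lower. Of the 68 members, 22 were higher and 2 were lower at a limma adjusted p below 0.05, which is 35.3% called against a background of 54.6% of all genes tested in that comparison. Higher calls were 32.4% of members against 29.3% of all genes, and lower calls were 2.94% against 25.4%. Without Cox7a1 and Cox7b2 20 were higher and 2 lower. Both ESC libraries lay above both MEF libraries in 41 of the 68 members and below them in 6 of the 68. Of all genes tested, 40.9% lay above and 33.1% below in this way. The median log2 fold was 0.365 over the members and 0.128 over all genes tested. With libraries rescaled by median ratios these medians were 0.257 and 0.0235, a shift of all genes by 0.105, and 19 members were then called higher and 2 lower. Cell type, medium and passage differ together between these groups and cannot be told apart.

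By complex, 12 of 37 members of complex I, 4 of 8 of complex III and 6 of 15 of complex IV rose in ESC, and none of complex II was called. The 6 of complex IV include Cox7a1 and Cox7b2, which passed the value filter only through ESC and iPSC libraries and are not read as support. In complex III the genes called were small supernumerary subunits rather than the core members. Cyc1 is not taken by the prefixes and is counted below with other parts of oxidative phosphorylation. Uqcrb was 685 and 830 in ESC and 223 and 269 in MEF, a log2 fold of 1.62 ± 0.38 (limma adjusted p = 0.00152). Uqcr10 was 687 and 710 against 216 and 277 (1.51 ± 0.29, 0.000294), and Uqcr11 was 418 and 398 against 176 and 215 (1.06 ± 0.20, 2e-04). Uqcrq was the other gene called. The core subunits Uqcrc1 (1241 and 1226 against 1123 and 877) and Uqcrc2 (646 and 774 against 771 and 761) and the Rieske iron-sulphur protein Uqcrfs1 (495 and 505 against 460 and 354) were not called.

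In complex IV the ubiquitous subunits Cox5a, Cox7c and Cox8a rose in ESC beside the isoforms above. Cox5a was 1591 and 1634 in ESC and 660 and 559 in MEF, with no overlap and a log2 fold of 1.41 ± 0.51 (limma adjusted p = 0.0269), but the call was lost whichever of the 4 libraries was left out. Cox7c was 898 and 824 against 332 and 416, and Cox8a was 1292 and 1262 against 700 and 723, with log2 folds of 1.21 ± 0.36 and 0.84 ± 0.25; the call of Cox7c was lost without the first MEF library. Cox5b, Cox6a1, Cox6b1, Cox6c, Cox7a2 and Cox7b were all higher in both ESC libraries than in both MEF libraries and were not called. Cox7a2l, which helps join complexes III and IV into supercomplexes, went the other way, with 551 and 585 in ESC and 656 and 1008 in MEF, without a call.

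In complex I the core subunits split. The NADH-binding flavoprotein Ndufv1 was 619 and 628 in ESC and 341 and 353 in MEF (log2 fold 0.84 ± 0.24, limma adjusted p = 0.00598), and its partner Ndufv2 was 754 and 703 against 440 and 363 (0.86 ± 0.20, 0.00143). Of the iron-sulphur core subunits, Ndufs1, Ndufs3, Ndufs7 and Ndufs8 were not called; Ndufs1 was 649 and 599 in ESC and 748 and 551 in MEF. Among accessory subunits the largest rise was that of Ndufs6, which was 258 and 298 in ESC and 129 and 111 in MEF (1.21 ± 0.28, 0.00134). Ndufab1, the mitochondrial acyl carrier protein, was 494 and 514 against 334 and 309, a log2 fold of 0.65 ± 0.25 (0.039) that was lost in 5 of 10 alternatives. Ndufa8 was lower, with 181 and 183 in ESC and 276 and 297 in MEF (-0.65 ± 0.22, 0.0176). The other member called lower was Sdhaf2, the factor that helps attach the flavin to Sdha, with 105 and 107 against 156 and 169. Of the 24 calls in ESC against MEF, 14 held in all 4 fits that left out a library, and Cox5a, Cox7c, Ndufa13, Ndufa6, Ndufa7, Ndufa8, Ndufab1, Ndufb8, Sdhaf2 and Uqcrq were lost in at least 1.

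No subunit of complex II was called. The catalytic subunits lay above both MEF libraries in both ESC libraries, by little: Sdha was 1792 and 1765 in ESC and 1671 and 1400 in MEF, and Sdhb 559 and 564 against 530 and 478. Of the membrane anchors, Sdhc overlapped, with 429 and 386 against 411 and 504, and Sdhd was 645 and 625 against 440 and 473, above both MEF libraries.

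In iPSC against MEF, 14 members were higher and 2 lower, 23.5% called against a background of 51.4%, and the median log2 fold was 0.223 over the members and 0.0374 over all genes tested. By complex, 9 of complex I, 3 of complex III and 2 of complex IV rose. The 2 of complex IV were Cox6b2 and Cox7a1. Without Cox7a1 and Cox7b2, which passed the value filter only through ESC and iPSC libraries, 13 members were higher and 2 lower. The largest rises among ubiquitous subunits were those of Ndufs6, which was 269 and 263 in iPSC (log2 fold 1.15 ± 0.28), Uqcrb, which was 522 and 542 (1.12 ± 0.38), and Ndufb4, which was 376 and 354 in iPSC and 169 and 182 in MEF (1.05 ± 0.20, limma adjusted p = 0.000254). Ndufa8 and Sdhaf2 were again lower, as in the ESC comparison, which shares the MEF libraries. Leaving out a library gave 8 to 14 calls, 6 of the 16 held in all 4 of these fits, those of Ndufa7, Ndufv3, Uqcr10 and Uqcrb were lost in 3, and neither Ndufa8 nor Sdhaf2 was called in any of these 4 fits. In iPSC against ESC, 1 member was called (1.47% against a background of 7.11%), the Cox7b2 described above, and 49 of 68 log2 folds were below 0, with a median of -0.125 against 0 over all genes tested. Cox5a (1226 and 1269 in iPSC) and Uqcr10 (458 and 465 in iPSC) lay below both ESC libraries without a call.

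Through the first days of OSK the chain changed little as a family. In OSK-D0 against MEF the background was 9.05% and 1.47% of members were called, the Cox6b2 above, which was lost without the second OSK-D0 library; without the first MEF library 2 members were called. At OSK-D1 against OSK-D0 the only call was Ndufb4, an accessory subunit of complex I, which was 423 and 358 against 285 and 205 (1.47% of members against a background of 8.36%); it was lost in 5 of 10 alternatives. At OSK-D3, 3 members were called (4.41% against a background of 22.9%). Ndufb4 was 419 and 347 and Ndufb10 was 333 and 328 at OSK-D3, above OSK-D0, where Ndufb10 was 232 and 216. Ndufb6 was 151 and 141 at OSK-D3 and 247 and 294 at OSK-D0, a log2 fold of -0.88 ± 0.29 (limma adjusted p = 0.033). No member was called at OSK-D3 without the second OSK-D0 library or without the first OSK-D3 library, and 1 without the second OSK-D3 library. The comparisons of days 1 to 7 share the OSK-D0 libraries.

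At OSK-D5, 1 member was higher and 6 were lower than at OSK-D0, 10.3% called against a background of 26.3%. The higher gene was Ndufv1, which was 417 and 340 against 225 and 251, and the lower ones were Cox4i2, Ndufa7, Ndufv3, Ndufs5, Ndufa8 and Uqcrq. Ndufv3, a small subunit of the NADH-binding module, was 166 and 124 at OSK-D5 and 321 and 228 at OSK-D0 (log2 fold -0.91 ± 0.29, limma adjusted p = 0.0273). Ndufa7 was 100 and 229 against 279 and 327, and Uqcrq was 158 and 294 against 344 and 325, so both were lowest in the first OSK-D5 library, the one with low Pou5f1. Without that library 1 member was called at OSK-D5 and without the second library 13 were, all of them lower; with the OSK-D0 libraries left out in turn, 1 was called each time.

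At OSK-D7, 13 members were higher than at OSK-D0 and none was lower. That is 19.1% called against a background of 32.2% in both directions and 16.4% for higher calls; 60 of 68 log2 folds were above 0, with a median of 0.396 against 0.0598 over all genes tested. The genes called were 8 of complex I, 4 of complex III and Cox8a of complex IV. Ndufv2, of the NADH-binding module, was 739 and 1008 at OSK-D7 and 401 and 396 at OSK-D0, a log2 fold of 1.11 ± 0.20 (limma adjusted p = 0.000369). Ndufa12 was 604 and 937 against 497 and 322 (0.91 ± 0.28, 0.0196), and Ndufb4 was 390 and 449 against 285 and 205 (0.79 ± 0.20, 0.00496). Uqcr10 was 305 and 468 against 205 and 234, Uqcrc2 was 856 and 1465 against 637 and 693, and Cox8a was 879 and 1535 against 703 and 656. 

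The day 7 calls rested largely on the second OSK-D7 library. Values were higher there than in the first in 66 of 68 members (97.1%), against 46.2% of all genes tested, with a median log2 difference of 0.52. Without the second OSK-D7 library 1 of the 13 calls was left, that of Ndufv2, and the median log2 fold over the members was 0.0702; without the first, 21 members were called, among them all 13. With the first and the second OSK-D0 library left out in turn, 4 and 3 were called. A fit of the OSK-D0 and OSK-D7 libraries alone called 1 member, again Ndufv2.

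**Figure D4:**
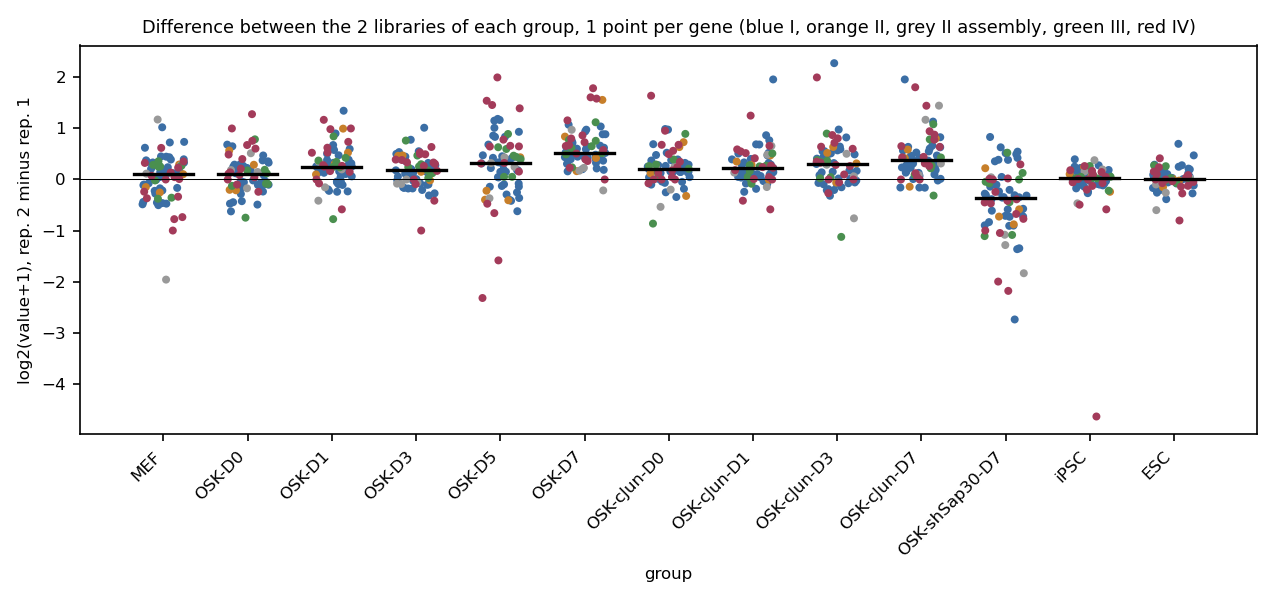
Difference in log2(value+1) between replicate 2 and replicate 1 of each group, with 1 point per gene coloured by complex and a bar at the median. The points of OSK-D7 lie nearly all above 0 (median 0.52), those of OSK-shSap30-D7 mostly below 0 (median -0.37), and those of ESC and iPSC lie close to 0.

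Between iPSC and OSK-D7, 3 members were higher in iPSC and 5 lower, 11.8% called against a background of 41%. Without Cox7a1 and Cox7b2, 2 were higher and 5 lower. Cox7a1, which passed the value filter only through ESC and iPSC libraries, was 24 and 29 in iPSC and 2 and 8 in OSK-D7. Its log2 fold of 2.40 ± 0.79 is given as a description, and Ndufv1 and Ndufa11 were the other higher genes. Ndufa12 was 404 and 416 in iPSC and 604 and 937 in OSK-D7 (-0.87 ± 0.28, limma adjusted p = 0.0194), and Ndufa8 was 189 and 190 against 294 and 364 (-0.78 ± 0.22, 0.00795); Uqcrh, Ndufb6 and Ndufb11 were lower too. Without the second OSK-D7 library 3 members were called, all higher, and with the iPSC libraries left out in turn 2 were called each time. After median-ratio scaling 1 was higher and 5 were lower.

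With cJun, a component of the AP-1 transcription factor that hinders reprogramming, no gene of the chain was called over the 7 days. OSK-cJun-D7 against OSK-cJun-D0 had 0 members called by limma against a background of 23.4%, with 4 members at an unadjusted p below 0.05 and a median log2 fold of -0.114. Ndufv2 was 484 and 568 at OSK-cJun-D7 and 414 and 489 at OSK-cJun-D0. The interaction, the day 7 against day 0 change of OSK-cJun minus that of OSK, called no member either, against a background of 4.02%; 7 members had an unadjusted p below 0.05 and 62 of 68 log2 differences were below 0, with a median of -0.562 against -0.0465 over all genes tested. The difference between the courses was thus not shown for any gene. Without the first OSK-D7 library 3 members were called in that test, Ndufb8, Ndufv2 and Uqcrc2, and without the first OSK-cJun-D0 library Cox6b2 was called lower at OSK-cJun-D7 than at OSK-cJun-D0.

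Compared day by day, no member was called between OSK-cJun and OSK at day 0 (background 0.0811%) or day 1 (background 2.36%), where 0 members had an unadjusted p below 0.05 at day 1. At day 3 Cox6b2 was the only call, 1.47% of members against a background of 9.63%, and it was lost without either OSK-D3 library or the first OSK-cJun-D3 library. At day 7, 5 members were lower with cJun and none higher, 7.35% against a background of 16.7% in both directions and 7.96% for lower calls; the median log2 fold was -0.479, against -0.0468 over all genes tested. Besides Cox6b2 these were Uqcrh, the hinge subunit of complex III, which was 325 and 561 with cJun and 582 and 985 without (-0.82 ± 0.24, limma adjusted p = 0.0243), and 3 genes of complex I. Ndufb8 was 322 and 361 against 511 and 692 (-0.80 ± 0.19, 0.00855), Ndufv2 was 484 and 568 against 739 and 1008 (-0.72 ± 0.20, 0.0208), and Ndufb11 was 337 and 370 against 457 and 634 (-0.61 ± 0.18, 0.0243). Without the second OSK-D7 library, or without the first OSK-cJun-D7 library, no member was called; without the first OSK-D7 library 16 were. The groups differ in cell markers as well: pluripotency markers summed to 692 to 891 in OSK-cJun-D7, against the OSK-D7 range given above. Fibroblast markers summed to 36981 to 37389, but this did not hold marker by marker. Only Col3a1 and Twist2 of the 12 were called higher with cJun, and the median log2 fold of the 12 was -0.0471. The part of these in the result was not tested.

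Ndufa4, long counted with complex I and now known as a subunit of complex IV, had values of its own. It was 602 and 562 in MEF, 602 and 593 in ESC and 537 and 593 in iPSC. Its values were 515 and 1015 in OSK-cJun-D0, 874 and 3405 in OSK-cJun-D1, 1128 and 5480 in OSK-cJun-D3 and again 874 and 3405 in OSK-cJun-D7. In OSK-D1 they were 715 and 1821. The second library was the higher in each of these cJun and OSK groups, by up to several times, and Ndufa4 was called in no comparison.

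The hairpin against Sap30, a subunit of the Sin3 histone deacetylase complex, went with lower values through most of the chain at day 7. In OSK-shSap30-D7 against OSK-D7, 16 members were lower and none was higher, 23.5% called against a background of 14.8% in both directions and 7.52% for lower calls. In 64 of 68 members the log2 fold was below 0, with a median of -0.608 against -0.00687 over all genes tested, and 8 of the 16 had an absolute log2 fold of 1 or more; 9.85% of all genes tested were called with such a fold in either direction. The genes called were 12 of complex I, Sdhd of complex II, Uqcrq of complex III, and Cox5a and Cox6b1 of complex IV. Ndufv2 was 376 and 250 with the hairpin and 739 and 1008 without (-1.49 ± 0.20, limma adjusted p = 0.000224). Ndufb4 was 136 and 199 against 390 and 449 (-1.34 ± 0.20, 0.000382).

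Ndufs4 and Ndufs3, an accessory and a core subunit of the arm of complex I that reaches into the matrix, fell with them. Ndufs4 was 143 and 76 against 204 and 320 (-1.28 ± 0.28, limma adjusted p = 0.00559), and Ndufs3 was 164 and 128 against 250 and 463 (-1.23 ± 0.28, 0.00761). Sdhd was 330 and 179 against 446 and 598 (-1.08 ± 0.26, 0.0102). Cox5a had the largest fitted difference among the genes called but rested on a wide pair of libraries, 580 and 127 against 651 and 1027 (-1.59 ± 0.51, 0.0447). In Ndufc1 the hairpin libraries were 86 and 12 and the OSK-D7 libraries 72 and 134, without a call.

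The 16 calls depended on which libraries were used, and this comparison shares the OSK-D7 libraries with those above. Without the second OSK-D7 library 2 were called, Ndufb4 and Ndufv2, and the median log2 fold over the members was -0.369 in that fit. Without the second OSK-shSap30-D7 library 5 were called, Ndufa11, Ndufa12, Ndufb10, Ndufb4 and Ndufv2, all among the 16. Without the first OSK-D7 library 28 were called and without the first OSK-shSap30-D7 library 21. A fit of these 4 libraries alone called none, and none of all genes tested. Against OSK-D0, the hairpin values of Ndufv2 (376 and 250, with 401 and 396 in OSK-D0) and Ndufb4 (136 and 199, with 285 and 205) were lower in both libraries. This held for 10 of the 16 genes, and Cox5a, Ndufa12, Ndufb10, Ndufb11, Ndufb3 and Ndufc2 overlapped OSK-D0. The 16 were picked for low values in these same hairpin libraries, so the count is partly fixed by that choice and is a description only. The share over all genes tested was not taken, and no test was made. The labels name no control hairpin for OSK-D7, so the hairpin and the lentiviral infection cannot be told apart. Fibroblast markers summed to 14390 to 16308 and pluripotency markers to 1182 to 1382 in OSK-shSap30-D7, and their part in the result was not tested.

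**Figure D5:**
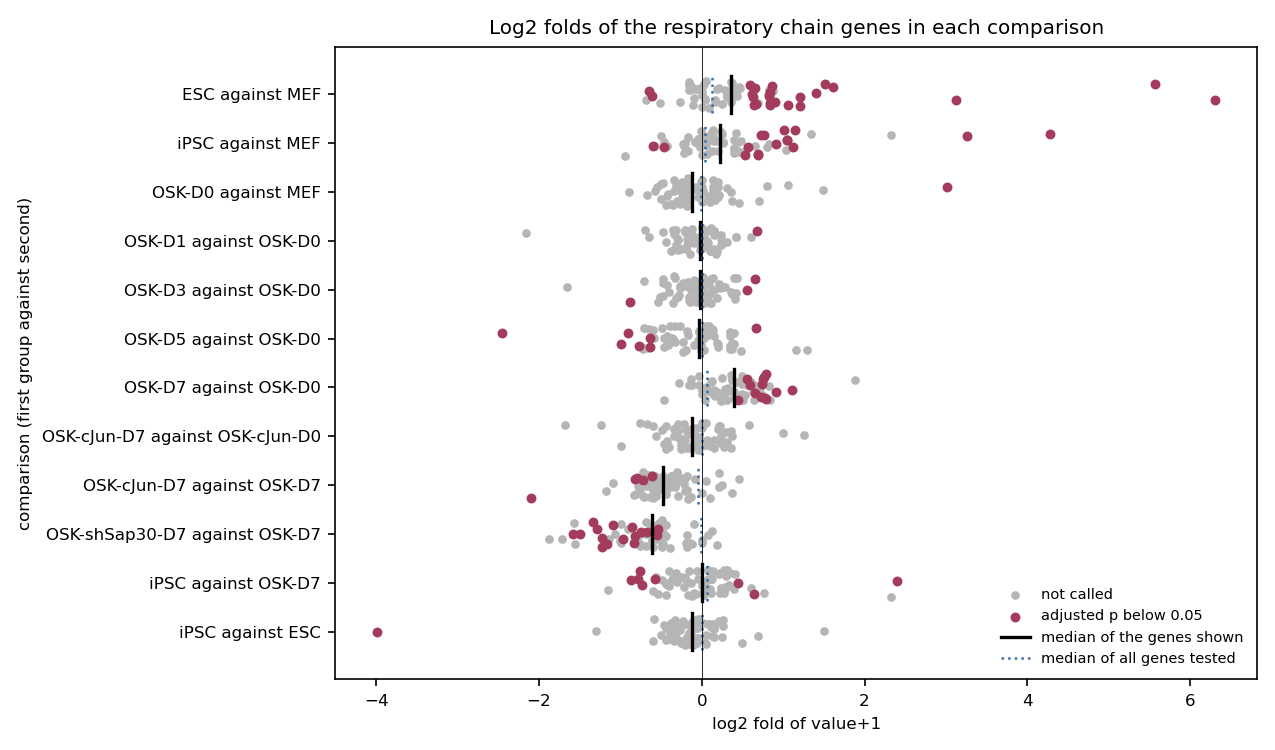
Log2 fold of value+1 of each of the 68 genes (points, placed at random heights within a row) in 12 comparisons, red where the limma adjusted p was below 0.05, with the median of the genes shown (black bar) and of all genes tested (dotted blue bar). The row of ESC against MEF has red points to the right, with Cox7b2 farthest out against MEF libraries listed at 0, and the rows of OSK-cJun-D7 and OSK-shSap30-D7 against OSK-D7 have red points to the left only.

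The difference between replicates went beyond OSK-D7. The second library was the higher in 60 of 68 members in OSK-cJun-D7, 55 in OSK-cJun-D1, 53 in OSK-cJun-D0 and 52 in OSK-D1, and in 17 of 68 in OSK-shSap30-D7. Over all genes tested the share was 44.8 to 49% in every group. In ESC it was 35 of 68 and in iPSC 40 of 68, and there the median differences were 0.01 and 0.02.

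Across the 13 group means, which share the same libraries and normalisation, the correlation of each of the 64 members at 10 or more in all libraries (61 subunits and 3 assembly factors) with the mean of the others had a median of 0.714, and 46 were over 0.5. Those below 0 were Ndufa4 (-0.484), Ndufa8 (-0.293) and Ndufa1 (-0.0988), and the assembly factor Sdhaf2 stood at -0.714. The group means include the second OSK-D7 and OSK-shSap30-D7 libraries, in which most members moved together. No correlation without these libraries, and no share over all genes tested, is given, so the values are a description only. The genes outside the family whose group means followed the mean of these 64 most closely were Pex3 (0.967), Scnm1 (0.946), Lsm8 (0.935), Acp1 (0.935) and Trmt5 (0.934).

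Other parts of oxidative phosphorylation were read for the same comparisons. Of 19 genes of the ATP synthase and of cytochrome c with its reductase subunit Cyc1, 7 rose in ESC against MEF, 36.8% against 29.3% of all genes tested, with a median log2 fold of 0.527. At OSK-D7 against OSK-D0 10 rose (52.6% against 16.4%), and 4 without the second OSK-D7 library. In OSK-cJun-D7 6 were lower than in OSK-D7 (31.6% against 7.96%) and in OSK-shSap30-D7 5 (26.3% against 7.52%); without the second OSK-D7 library 2 and 2 were, and without the second OSK-shSap30-D7 library 2 of the latter. Cyct, the testis cytochrome c, was 119 and 85 in ESC, 58 and 72 in iPSC and listed at 0 in both MEF libraries.

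Of 38 assembly factors, 9 rose (23.7% against 29.3% of all genes tested) and 1 fell (2.63% against 25.4%) in ESC against MEF. At OSK-D7 2 rose (5.26% against 16.4%). In OSK-shSap30-D7 4 were lower than in OSK-D7 (10.5% against 7.52%), and fewer without the second OSK-D7 library. Ndufaf3 was among these 4 (log2 fold -2.59 ± 0.43, limma adjusted p = 0.000916 with all libraries), and it was called in each of the 4 fits that left out a library. Of 16 citrate cycle genes, 5 rose (31.2% against 29.3% of all genes tested) and 2 fell (12.5% against 25.4%) in ESC against MEF. Fewer rose without the first ESC library or the second MEF library. At OSK-D7 2 of the 16 fell (12.5% against a background of 15.8% for lower calls). At OSK-cJun-D7 5 fell against OSK-cJun-D0 (31.2% against 12%), with 2 to 5 when a library was left out. Falls were also seen without cJun at OSK-D3, where 4 fell against OSK-D0 (25% against a background of 22.9% in both directions).

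Of 14 regulators of mitochondrial biogenesis in the table, 7 rose (50% against 29.3% of all genes tested) and 2 fell (14.3% against 25.4%) in ESC against MEF. The 7 include Tfb1m and Esrrb, and Esrrb is also one of the pluripotency markers summed above. Nrf1 (log2 fold 1.11 ± 0.19), Gabpa (1.34 ± 0.26), Pprc1 (1.37 ± 0.25), the mitochondrial transcription factor Tfam (0.83 ± 0.26) and the mitochondrial RNA polymerase Polrmt (0.99 ± 0.16) rose; the call of Tfam was lost without the second ESC library and without the first MEF library. The coactivator Ppargc1a (-2.70 ± 0.91, limma adjusted p = 0.018) and its target Perm1 (-1.84 ± 0.52, 0.00576) fell, but Ppargc1a was called in none of the 4 fits that left out a library, and Perm1 was lost without the first ESC library and without the second MEF library. At OSK-D7 the only one called was the pluripotency marker Esrrb, at 63 and 60 against 11 and 0. In OSK-shSap30-D7 against OSK-D7 it was Yy1, which was lower (-0.74 ± 0.18, limma adjusted p = 0.0114). Esrrb was lost without the second OSK-D0 library, and Yy1 without the first OSK-D7 library and without the second OSK-shSap30-D7 library.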

How the data were processed

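Per the labels' protocols, TRIzol RNA of 26 mouse samples went through a TruSeq RNA preparation and NextSeq 500 sequencing. The authors used bcl2fastq, Bowtie2 and RSEM with mm10, per the submitters' processing notes. The deposited values are a score, whole numbers normalised by the authors to 1 distribution in every library (totals 4619641 to 4624161), so depth is unknown; 159 of 18198 identifiers had no symbol.

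Values plus 1 were taken to log2, and limma 3.58.1 with statmod 1.5.0 (in R 4.3.3; tables read with the data.table package, 1.17.8) was fitted to 16038 genes with a value of 10 or more in at least 2 libraries, with 1 mean per group and moderated variances that were robust and followed expression. Each ± after a log2 fold is its standard error. Calls are Benjamini-Hochberg adjusted p below 0.05 over all genes tested. The fit was tested on simulated data. Figures and annotation used Python 3.11.15, pandas 2.3.3 and matplotlib 3.10.9.

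Members and lists were chosen with earlier results of these data known. Named were the complex IV isoforms, core subunits, Ndufab1 and Ndufa4, and up to 4 called members per comparison and direction with the largest change and no overlap between libraries; further called members were named after their values were seen. One gene is counted among the members but is not reported here by itself. Alternatives changed pseudocount, filter, scaling, replicate block, libraries fitted and libraries left out.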

Additional observations from a re-analysis of the deposited data

How the results depend on the processing

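Of 960 gene results under alternatives (96 genes by comparison), 694 kept their call, 266 lost it and 0 changed direction. Counts of members called moved by over 1.5 times as follows. With a pseudocount of 0.1, iPSC against ESC gave 0 calls and OSK-D5 against OSK-D0 gave 4; with a pseudocount of 10 the first gave 2, and with no filter on low values the second gave 4. Median-ratio scaling gave 0 for OSK-D1 against OSK-D0. With only the compared libraries in the fit, counts were 2 for iPSC against ESC, 0 for OSK-D0 against MEF, 0 for OSK-D1, 1 for OSK-D3, 0 for OSK-D5 and 1 for OSK-D7 against OSK-D0, 2 for iPSC against OSK-D7, 0 for OSK-cJun-D7 against OSK-D7 and 0 for OSK-shSap30-D7 against OSK-D7; the spread then rests on 4 libraries.

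Leaving out each library in turn gave 17 to 19 calls for ESC against MEF, 8 to 14 for iPSC against MEF, 0 to 1 for iPSC against ESC, 0 to 2 for OSK-D0 against MEF, 0 to 1 for OSK-D1, 0 to 2 for OSK-D3, 1 to 13 for OSK-D5 and 1 to 21 for OSK-D7 against OSK-D0. It gave 2 to 9 for iPSC against OSK-D7, 0 to 1 for OSK-cJun-D7 against OSK-cJun-D0, 0 for OSK-cJun against OSK at days 0 and 1, 0 to 1 at day 3, 0 to 16 at day 7, 2 to 28 for OSK-shSap30-D7 against OSK-D7 and 0 to 3 for the interaction. The lone library left in a group was assumed to vary like the others. The cause of these moves was not tested.

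The replicate numbers 1 and 2 recur in every group. Deviations from group means correlated between same-numbered libraries by 0.192 to 0.331 over the 28 pairs among OSK days 0, 1, 3 and 7 and the OSK-cJun groups, and by -0.0883 to 0.0953 over the other 50 pairs; with 2 numbers this is a hint from the data, and the labels do not pair the libraries. With the replicate number as a block, 1 member was called for OSK-cJun-D7 against OSK-cJun-D0 and 9 for OSK-cJun-D7 against OSK-D7, while OSK-D7 against OSK-D0 gave 16 and OSK-shSap30-D7 against OSK-D7 gave 21. The complex IV mean without Cox6b2, the counts of other lists with libraries left out, the highest and lowest groups without 3 libraries and the counts without Cox7a1 and Cox7b2 were chosen after seeing the data. Depth is unknown, and values near 0, as in Cox4i2, limit what can be said of low genes.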
